A study of Rattus norvegicus with 56 samples.

Results

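The hippocampus of old rats that still learned well was compared with that of young rats, in animals that had received only a sham procedure. Of the 56 arrays of the series, 8 made up this comparison: the first hippocampus array of each of the 4 aged-unimpaired sham rats (AU_Sham 1 to 4) and of each of the 4 young sham rats (Y_Sham 1 to 4), taken by their titles, with 1 value per animal. All were male Long-Evans rats, an outbred strain. The young group was 6 to 7 months of age and the aged group 26 to 27 months. "Unimpaired" means that, in a water maze test of spatial memory, the aged rat performed on a par with young rats. In the sham procedure the magnetic coil was held away from the head, but the animals went through the same anaesthesia (isoflurane) and sedation (dexmedetomidine, reversed with Antisedan). The doses of dexmedetomidine and of Antisedan were each 0.03 mg/kg in aged and 0.035 mg/kg in young rats. Body weight was given as 714 to 1150 g for aged and 502 to 788 g for young rats. Dose and age cannot be told apart, and weight moved with age too. The dorsal hippocampus was dissected 48 h later and its total RNA hybridized to a 1-colour Agilent array. The comparison asked which transcripts differed with age where memory was kept.

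The hippocampus binds the events of an experience into a memory, and its dentate gyrus keeps a small pool of dividing progenitors in adult rodents, which shrinks as the animal ages. Microglia, the resident macrophages of the brain, survey the tissue and clear debris. With age they commonly raise lysosomal, antigen-presenting and complement genes. The complement cascade starts when C1q binds a surface, proceeds through cleavage of C4 and C3, and tags material that microglia take up through complement receptor 3, the pair Itgam and Itgb2.

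Values are normalized log2 signals, on a scale where 0 is the mean of an array, and a difference is the AU_Sham mean minus the Y_Sham mean. They say nothing of levels of one gene against another. In tissue, fewer cells of a type and less RNA per cell cannot be told apart. The region label held: in the 8 animals Klk8, a serine protease of hippocampal neurons, lay at 5.77 to 6.23 in hippocampus and at -2.99 to -1.02 in the cortex of the same rats, and Neurod6, Wfs1 and Zbtb20 were higher in hippocampus in 8 of 8 animals. Choroid plexus RNA varied between animals: Ttr (transthyretin, its most abundant product) was at 8.98 in Y_Sham 1 and 5.03 in AU_Sham 1, with the other 6 animals between 6.21 and 7.76.

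Some arrays stood apart. The distance between 2 arrays, as the median absolute log2 difference over the probes tested, was 0.144 to 0.217 between young animals. It was 0.189 to 0.467 between aged ones. AU_Sham 4 lay 0.288 to 0.467 from the other 7 arrays. AU_Sham 1 lay closer to Y_Sham 1 to 4 (0.183, 0.217, 0.243 and 0.249) than to the other aged animals (0.314 to 0.467). AU_Sham 1, Y_Sham 1 and Y_Sham 2 shared slide 1. The other 5 arrays were on slide 2, and the slides were scanned on different days. The spread of log2 signal over an array also moved with the group: its SD was 4.16 to 4.25 in young animals, 3.93 to 4.06 in AU_Sham 2, 3 and 4, and 4.34 in AU_Sham 1. The z-score of the study divides by that SD. The median difference was -0.07 over the dimmest of 4 equal bins of probes and 0.07 over the brightest, and under quantile normalization -0.02 and -0.003. Between 62.9% and 67.2% of probes were well above background on these arrays.

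**Figure D1:**
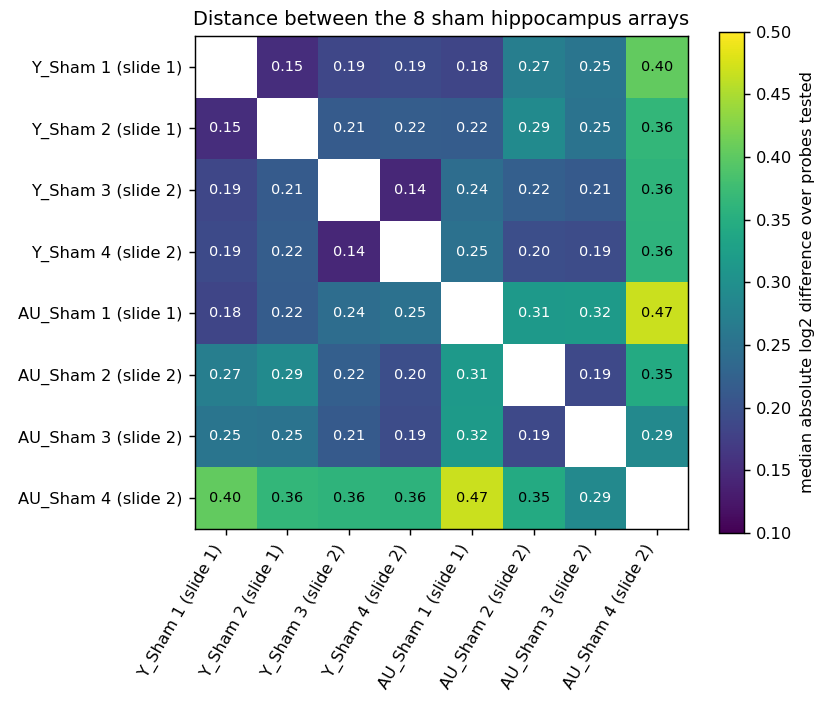
Median absolute log2 difference between each pair of the 8 sham hippocampus arrays, over the probes tested; rows and columns are animals with their slide. AU_Sham 4 lies 0.288 to 0.467 from all others, and AU_Sham 1 lies nearest to Y_Sham 1 of the same slide at 0.183.

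A single probe had an adjusted p under 0.05 and is termed called (limma, Benjamini-Hochberg over 32436 probes), which is 0.00308% of those tested. It was Cdh23 (NM_053644), which encodes cadherin 23, a calcium-dependent adhesion protein best known from the tip links of inner ear hair cells. The unadjusted p was under 0.05 for 6.11% of the probes, 714 higher in AU_Sham (2.2%) and 1267 lower (3.91%), against 1621.8 that such a threshold gives by chance in both directions together. The split depended on the scaling: 36.0% of the probes at that threshold were higher with the z-score, 60.1% with the 75th percentile, 45.8% with quantile normalization, 47.4% with normexp and 26.0% with the deposited z-scores. Young and aged values did not overlap for 394 probes higher in AU_Sham (1.21%) and 628 lower (1.94%). The counts rested on single animals. Without AU_Sham 1, 58 probes were called (0.179%), 11 higher and 47 lower. AU_Sham 1 was within the range of the young animals for 27 of the 58, which were chosen without it. Leaving that animal out and using quantile normalization left 16 called, and adding the slide as a block left 5, although each of the 58 then still had an unadjusted p under 0.05. By the selection rule of the study's methods (a test across groups, then a z-ratio and a false discovery rate) 47 of 45208 probes (0.104%) were chosen, 25 higher and 22 lower. Without any other single animal, between 0 and 5 probes were called.

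Cdh23 was at -1.20, -1.24, -1.24 and -1.56 in Y_Sham 1 to 4 and at -0.05, -0.12, 0.17 and -0.17 in AU_Sham 1 to 4. All 4 aged animals were above all 4 young ones, by far more than the spread within a group. Its difference was 1.27 (SE 0.183, limma, adjusted p = 0.0311), 1.17 within slide 1 and 1.36 within slide 2. The direction held under each of the 23 alternatives in which it was tested, between 0.81 and 1.44, and it was called in 11 of them. It was not called, for instance, in the fit of the 8 arrays alone, at an adjusted p of 0.243. In stimulated rats, which are other animals, Cdh23 was called as well, at 1.19 (SE 0.174, limma, adjusted p = 0.0159).

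By a fixed rule the 12 genes with the smallest p in each direction were taken, among genes well above background on at least 3 of 4 arrays of a group, each by its probe of smallest p. Other than Cdh23, none was called. These p-values chose the genes and are given only to describe them, and separate groups follow largely from that choice. The background condition left out Myo7b and Myl7, which were lower in aged animals with a p that would have placed them among the 12, but were well above background on 1 young and 0 aged arrays.

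Among the 12 higher genes were several of macrophages and complement. Ccl3, a chemokine of activated microglia and macrophages, was at -0.78, -1.31, -0.73 and -0.85 in the young animals and at 0.64, 0.11, 0.16 and 0.20 in the aged ones. The groups were apart, with AU_Sham 1 the highest. Its difference was 1.20 (SE 0.222, limma, adjusted p = 0.216), and 1.69 and 0.95 within slides 1 and 2. Trem2, the microglial lipid receptor that signals through the adaptor Tyrobp, was at 5.43, 5.27, 5.45 and 5.50 in young and at 5.79, 5.99, 5.93 and 5.72 in aged animals. That is a small shift of 0.44 (SE 0.101, limma, adjusted p = 0.52) with little spread in either group, and with nearly the same size on slide 1 (0.43) and slide 2 (0.40). Olr1, a receptor for oxidized lipoprotein, differed by 1.13, with young values of -2.17 to -1.19 and aged values of -0.89 to -0.31.

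Bpifb4, a member of the family of bactericidal/permeability-increasing fold proteins, was at -2.05, -1.84, -1.73 and -2.41 in young and at -0.82, -0.99, -1.02 and -0.78 in aged animals. The groups did not overlap, and the difference was 1.11 (SE 0.21, limma, adjusted p = 0.231). Otos, which encodes otospiralin, a secreted protein first described in the cochlea, was 0.60 higher and its other probe 0.53 higher. Tbx4, a T-box transcription factor, was 1.30 higher with overlapping groups, and its other probe differed by -0.17, so its direction depends on the probe. Timd2, a cell surface receptor of the TIM family, was 1.94 higher, but Y_Sham 3, at -1.28, was within the aged range of -1.60 to -0.55 and only 1 of the 4 young arrays was well above background. Tex12, a protein of the synaptonemal complex, and Cyct, the testis form of cytochrome c, were not well above background in any young animal. Their aged values were widely spread, -3.18 to -0.34 and -2.81 to 0.08. Against the detection level of the young arrays the aged means, not each aged animal, were at least 2.22-fold and at least 2.33-fold higher.

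**Figure D2:**
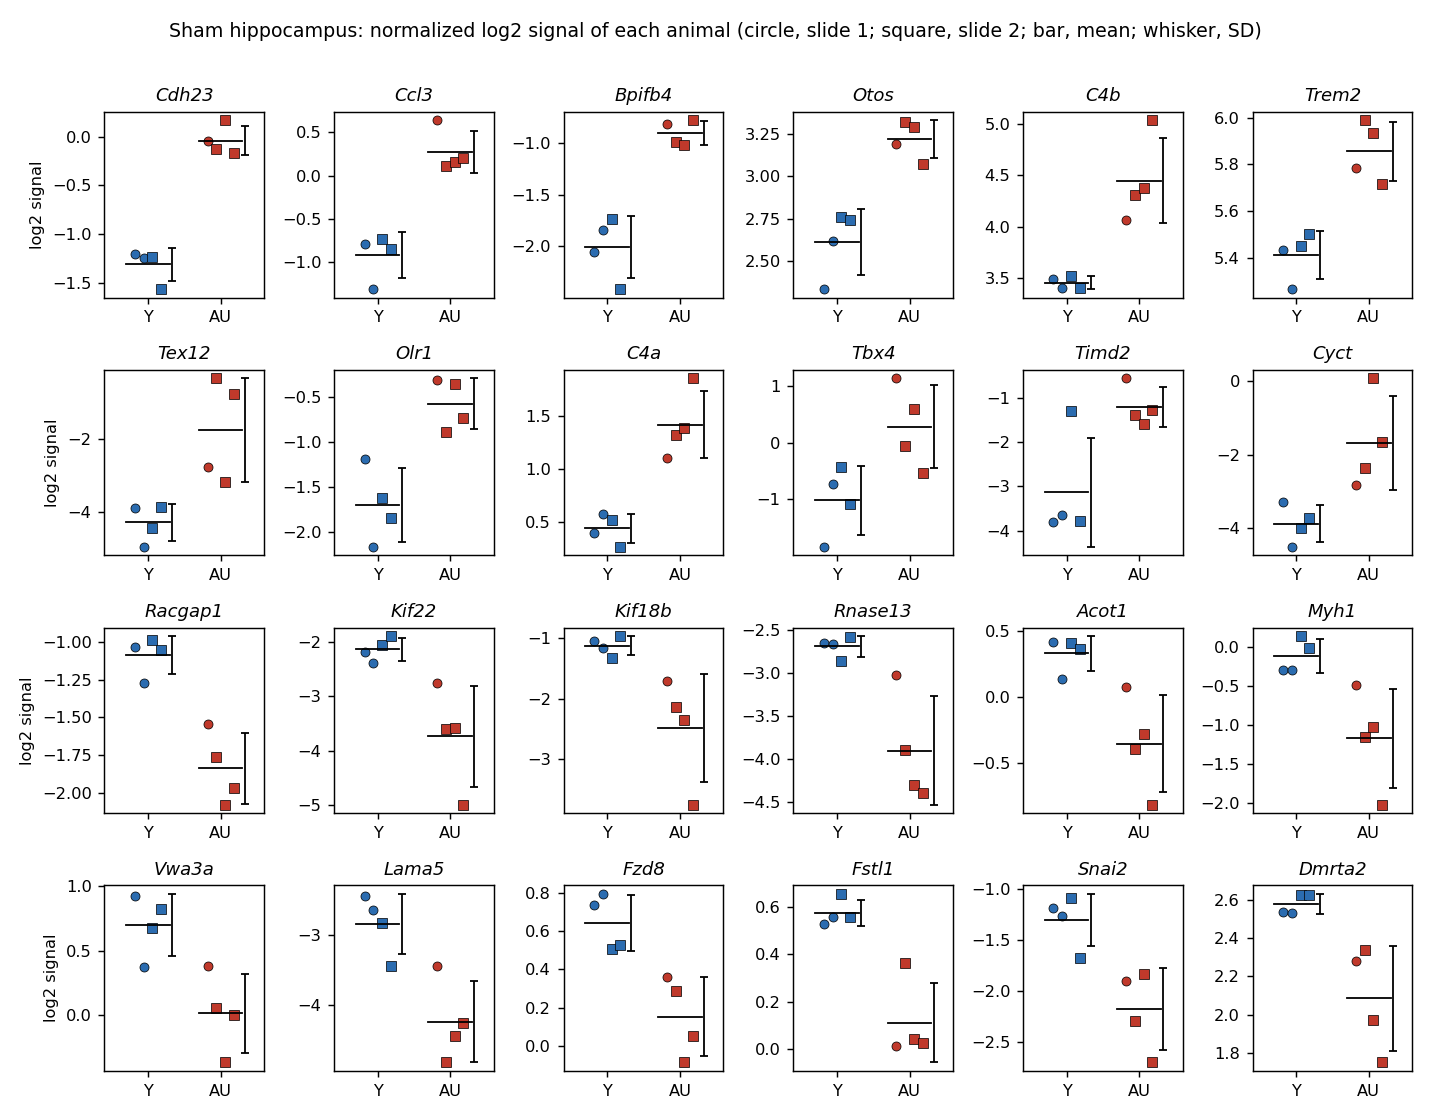
Normalized log2 signal of each animal for the 12 genes with the smallest p in each direction, among genes well above background on at least 3 of 4 arrays of a group; blue, Y_Sham; red, AU_Sham; circles, slide 1; squares, slide 2; horizontal bars are means and whiskers SD (n = 4), and each panel has its own axis. For Cdh23 the young animals lie at -1.56 to -1.20 and the aged at -0.17 to 0.17, and for Kif22, Kif18b, Acot1 and Myh1 AU_Sham 4 is the lowest animal.

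Of the 22 complement genes tested, 7 were higher at an unadjusted p under 0.05 and 0 lower, with a median difference of 0.23, where 312 (higher) and 537 (lower) of 13365 named genes passed that threshold with a median of -0.03. None of the 7 was called. They were C1qa, C1qb, C4a, C4b, C3, Itgb2 and Itgam, which belong to the classical route and its receptor. For C1qa and C1qb, chains of the recognition protein, the differences were 0.37 and 0.44. C1qa was at 6.20, 5.88, 5.83 and 6.22 in young and at 6.24, 6.27, 6.44 and 6.64 in aged animals, so the groups touched without overlapping. For C1qb the groups overlapped, since AU_Sham 1, at 7.01, was below Y_Sham 3 and 4.

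C4b was at 3.49, 3.40, 3.52 and 3.41 in young and at 4.07, 4.31, 4.38 and 5.03 in aged animals. The young values lay close together, whereas the aged ones ranged widely, with AU_Sham 4 highest and AU_Sham 1 lowest. Its difference was 0.99 (SE 0.219, limma, adjusted p = 0.52), with 0.62 within slide 1 and 1.11 within slide 2, and the second C4b probe gave 0.82. C4a gave 0.98 (SE 0.23), with aged values of 1.11 to 1.86 against 0.27 to 0.58. The 2 genes are near copies, and RNA of one may bind the probe of the other, so they are not separate evidence. The likeness reaches into the promoters, shown here because both genes differed by nearly the same amount. The 120 bases before the annotated start (RefSeq, GRCr8, both on the plus strand) are, for C4a at chr20:4010237-4010356 and for C4b at chr20:4201859-4201978, identical at 110 of 115 aligned positions (95.7%, with no gap and C4b shifted by 5 bases):
C4a: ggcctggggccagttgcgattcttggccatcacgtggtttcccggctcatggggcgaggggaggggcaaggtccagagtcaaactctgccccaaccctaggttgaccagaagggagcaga
C4b: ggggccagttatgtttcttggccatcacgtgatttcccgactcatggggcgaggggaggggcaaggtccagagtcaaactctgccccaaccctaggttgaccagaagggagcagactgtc

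C3, on which the routes of activation converge, was at 4.74, 3.57, 4.02 and 3.08 in young and at 4.90, 4.40, 4.72 and 5.24 in aged animals. Young animals varied more than aged ones, and Y_Sham 1 was above AU_Sham 2 and AU_Sham 3. The difference was 0.96 (SE 0.323, unadjusted p = 0.00732, limma). The receptor subunits Itgb2 and Itgam were 0.45 and 0.42 higher. Without AU_Sham 1 the list had 6 members higher at that threshold and 0 lower, where 8.19% and 10.8% of all probes were. Without AU_Sham 4 it had 6 higher and 1 lower, without Y_Sham 2 it had 4 higher, and under quantile normalization 6 higher and 0 lower.

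Of 25 microglia and macrophage markers, 7 were higher at an unadjusted p under 0.05 and 0 lower, with a median of 0.17. The groups did not overlap for 7 of the 25, all higher, as for 1.41% of all named genes in that direction. Beside Trem2, those past the threshold were Tyrobp (0.57), the lysosomal protease Ctss (0.41), the Fc receptor chain Fcer1g (0.44), the lysosomal membrane proteins Cd68 (0.50) and Laptm5 (0.41), and Itgam. Tyrobp was at 5.78, 5.18, 5.68 and 5.68 in young and at 5.89, 6.31, 6.23 and 6.17 in aged animals, with AU_Sham 1 nearest to the young. Cd68 was at 1.65, 1.35, 1.80 and 1.85 against 1.92, 2.21, 2.18 and 2.35. Aif1, the most widely used microglial marker, differed by 0.26 (unadjusted p = 0.0914, limma), with young values of 6.02 to 6.17 and aged values of 6.28 to 6.49. The list's mean level was 2.87 to 3.04 in young and 3.03 to 3.16 in aged animals. Ctsd, the aspartyl protease of lysosomes, was 0.54 higher, at 8.19 to 8.46 in young and 8.40 to 9.24 in aged animals. Among 30 lysosome and proteolysis genes 3 were higher and 2 lower at that threshold, where 2.33% and 4.02% of all named genes were. Quantile normalization left 9 of the 25 microglial genes higher and 0 lower, and leaving out AU_Sham 1 left 6 higher and 1 lower. Without AU_Sham 1, 8.19% of all probes were higher at that threshold and 10.8% lower.

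The antigen-presenting genes differed less evenly. Cd74, the invariant chain that guides class II molecules, was at 4.12, 2.08, 2.25 and 1.79 in young and at 4.33, 3.41, 3.13 and 4.76 in aged animals. Y_Sham 1 had a value within the aged range, and without it the young animals were all lower. The difference was 1.35 (SE 0.53, unadjusted p = 0.019, limma), and 1.23 and 1.75 within slides 1 and 2. RT1-Da, a class II alpha chain, differed by 1.04 (unadjusted p = 0.0921, limma), with Y_Sham 1 again high at 1.96. Of 8 class II genes, 1 passed the unadjusted threshold, where 2.33% of all named genes were higher. By sign 7 were higher in aged animals, as were 5910 of 13365 named genes. The class II members past the threshold numbered 3 without Y_Sham 1 and 0 without Y_Sham 2, Y_Sham 4 or AU_Sham 4. Of 17 class I genes, RT1-A1 (0.41) and RT1-A2 (0.40), which are classical class I heavy chains of high similarity, were the 2 that did, and none did without Y_Sham 4 or AU_Sham 4. RT1-A1 was at 5.88 to 6.19 in young and at 6.26 to 6.81 in aged animals.

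Of 26 chemokines and cytokines, 3 were higher at that threshold and 0 lower, where 2.33% and 4.02% of all named genes were. These 3 were Ccl3, Ccl4, its close relative (1.19), and Cxcl11, an interferon-induced chemokine (1.89). Ccl4 was well above background on 2 of 4 arrays of each group and Cxcl11 on 0 young and 2 aged arrays, so both were near the limit of detection. Of 35 interferon-induced genes, 1 was higher, Irf9, which is near the share of 2.33% of all named genes. Irf9, part of the complex that carries the interferon signal to the nucleus, was at 4.51 to 4.86 in young and 4.97 to 5.37 in aged animals (0.43). The median of that list was 0.07.

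**Figure D3:**
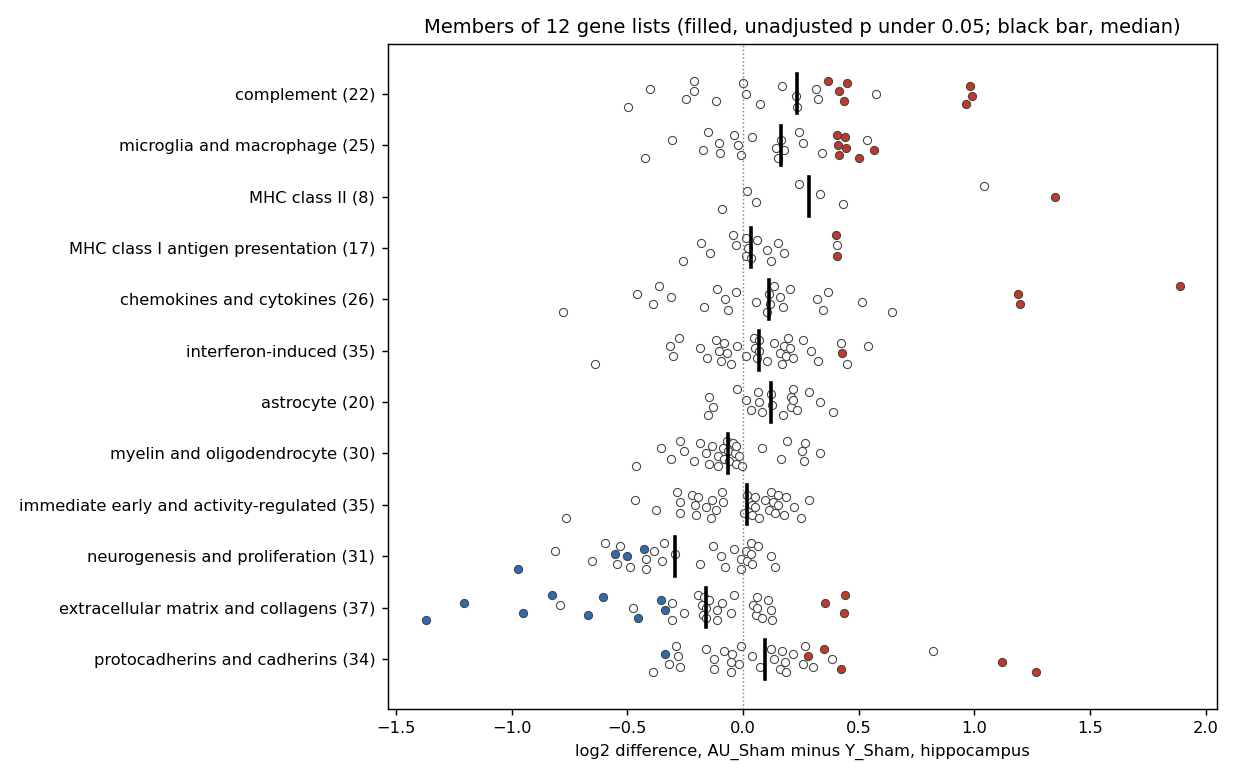
Log2 difference, AU_Sham minus Y_Sham, for the tested members of 12 gene lists (number in brackets); filled points have an unadjusted p under 0.05 and black bars are list medians. The medians are 0.23 for complement, 0.17 for microglia and macrophage, -0.29 for neurogenesis and proliferation and -0.16 for extracellular matrix, against -0.03 over all named genes.

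The first 3 of the 12 lower genes, Racgap1, Kif22 and Kif18b, act in cell division. Racgap1, a GTPase-activating protein of the central spindle needed for cytokinesis, was at -1.04, -1.27, -0.99 and -1.05 in young and at -1.54, -1.76, -2.08 and -1.97 in aged animals. Its groups did not overlap. The difference was -0.75 (SE 0.134, limma, adjusted p = 0.213), -0.39 within slide 1 and -0.91 within slide 2, and its other 2 probes were lower too, the least by -0.32. Kif22 and Kif18b, both kinesins of the mitotic spindle, differed by -1.61 and -1.36 on the log2 scale. Kif22 was at -2.19, -2.39, -2.05 and -1.88 in young and at -2.75, -3.61, -3.58 and -5.0 in aged animals, where 1 of 4 arrays was well above background. Kif18b was at -1.05, -1.16, -1.33 and -0.96 against -1.70, -2.13, -2.34 and -3.75. For both kinesins AU_Sham 1 was nearest to the young animals and AU_Sham 4 farthest, and both were called without AU_Sham 1, as was Racgap1. With the slide as a block as well, neither the kinesins nor Racgap1 were called.

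Of the 31 neurogenesis and proliferation genes tested, 4 were lower at an unadjusted p under 0.05 and 0 higher. Among all named genes 4.02% were lower at that threshold. The list median was -0.29, and by sign 23 of the 31 were lower, as were 7455 of 13365 named genes. Cdk1, the kinase that drives entry into mitosis, was at 0.52, 0.01, 0.48 and 0.40 in young and at -0.07, -0.41, -0.46 and -1.54 in aged animals. Its groups did not overlap, although AU_Sham 1 was close to Y_Sham 2. Its difference was -0.97 (SE 0.264, unadjusted p = 0.00143, limma). Ccnb2, cyclin B2, a partner of Cdk1, differed by -0.55 and by -1.18 at its other probe, Mcm6, a subunit of the replicative helicase, by -0.50, and Dpysl3, a protein of growing neurites, by -0.43. Dcx (doublecortin), the usual marker of new neurons, differed by -0.19 and Sox11 by -0.53, and neither passed the threshold. Mki67, a marker of cycling cells, gave 0.14 at the probe used, but its 4 probes ranged from -1.66 to 0.14, so no direction can be given. Without AU_Sham 1 the list had 11 members lower and 0 higher, without AU_Sham 4 it had 4 lower, and with quantile normalization 5 lower. In the fit without AU_Sham 1, 10.8% of all probes were lower at that threshold and 8.19% higher.

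Genes used in mitosis often carry CCAAT boxes and, closer to the start, a cell cycle homology region of the form TTTGAA, on either strand. The promoters of Kif22, Kif18b, Cdk1, Ccnb2 and Mcm6, picked after their values were seen, are shown to see where these letters fall. Racgap1 is not shown. Each line gives the 120 bases before the start, 5′ to 3′ in the direction of the gene, from RefSeq (GRCr8), with matches to CCAAT or TTTGAA, or to their reverse complements ATTGG or TTCAAA, in capitals. The windows are chr1:191080879-191080998 (minus strand) for Kif22, chr10:88389692-88389811 (minus) for Kif18b, chr20:19265173-19265292 (plus) for Cdk1, chr8:79981659-79981778 (minus) for Ccnb2 and chr13:42404353-42404472 (minus) for Mcm6:
Kif22: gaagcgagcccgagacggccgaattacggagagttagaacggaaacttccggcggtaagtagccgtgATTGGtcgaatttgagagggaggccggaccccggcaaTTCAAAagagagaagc
Kif18b: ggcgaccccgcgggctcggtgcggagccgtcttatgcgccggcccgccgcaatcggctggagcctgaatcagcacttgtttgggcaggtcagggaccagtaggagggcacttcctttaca
Cdk1: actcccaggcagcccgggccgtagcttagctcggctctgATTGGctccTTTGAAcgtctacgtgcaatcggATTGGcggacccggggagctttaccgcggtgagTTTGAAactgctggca
Ccnb2: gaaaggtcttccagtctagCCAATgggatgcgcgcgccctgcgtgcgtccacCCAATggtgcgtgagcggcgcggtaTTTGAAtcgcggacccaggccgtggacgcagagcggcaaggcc
Mcm6: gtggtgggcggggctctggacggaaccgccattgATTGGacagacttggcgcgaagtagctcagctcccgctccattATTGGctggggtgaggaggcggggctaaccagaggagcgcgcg
Windows of Kif22, Cdk1 and Ccnb2 held both motifs, that of Mcm6 held CCAAT alone and that of Kif18b held neither. Of 33469 RefSeq promoter windows of that length, 19.9% held CCAAT, 7.11% TTTGAA and 1.54% both, in either orientation. In Kif22 and Cdk1 a TTTGAA match lay 11 to 16 bases before the start. These are matches of letters in 5 picked genes, and no binding was measured here.

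Matrix genes made up the other list with lower values. Of 37 extracellular matrix and collagen genes, 9 were lower and 3 higher at an unadjusted p under 0.05, with a median of -0.16. Col3a1 and Col1a1, the fibrillar collagens of fibroblasts and of the meninges, had the largest differences, -1.37 and -1.20. Col3a1 was at 1.45, 0.35, 0.64 and 0.89 in young and at 0.12, -0.50, -0.99 and -0.80 in aged animals, and Col1a1 at 2.29, 1.44, 1.94 and 2.20 against 1.29, 0.77, 0.46 and 0.53. For both the groups were apart, and AU_Sham 1 was the highest aged animal. Tnc (tenascin C), a matrix glycoprotein made by astrocytes and progenitors, was at 1.51, 1.65, 0.90 and 0.89 in young and at 1.25, 0.16, 0.06 and -0.33 in aged animals. AU_Sham 1 was within the young range but below both young animals of its slide. Without AU_Sham 1 Tnc was called, at -1.27 (limma, adjusted p = 0.0359). With the slide as a block as well, Tnc was not called, at -0.97 (limma, adjusted p = 0.0923). Lum, a small proteoglycan of collagen fibrils, Nid2, a nidogen of basement membranes, Timp3, a metalloproteinase inhibitor, and Hapln1, the link protein of perineuronal nets, differed by -0.83, -0.61, -0.45 and -0.35. Timp2 (0.44), Col18a1 (0.35) and Hapln2 (0.44), the link protein of myelinated axons, were the 3 higher members. Of 20 choroid plexus and ependyma genes 1 was lower at that threshold (Mia, -0.58) and 0 higher, and of 30 endothelial and mural genes 1 was lower (Itm2a, -0.40) and 0 higher, where 4.02% of all named genes were lower. By sign alone, 17 of the 20 and 25 of the 30 had a value below 0, as had 7455 of 13365 named genes in this scaling. The mean level of the choroid plexus list was 0.81 to 1.91 in young and 0.43 to 1.08 in aged animals. Whether the amount of plexus, vessel or meninges in a dissection played a part in the matrix values was not tested. Without AU_Sham 1 the matrix list had 8 members lower and 3 higher, where 10.8% and 8.19% of all probes were. Without AU_Sham 4 it had 5 lower and 2 higher, and with scaling to the 75th percentile 4 lower and 2 higher.

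The remaining lower genes were of mixed function. Acot1, an acyl-CoA thioesterase, was at 0.41, 0.13, 0.40 and 0.36 in young and at 0.08, -0.40, -0.28 and -0.82 in aged animals (-0.68). Myh1, a fast myosin heavy chain, differed by -1.05, Vwa3a by -0.68, and Fzd8, a Wnt receptor, by -0.49. For Acot1 and Myh1 the slide 1 differences were -0.20 for each, against -0.88 and -1.46 on slide 2. Fstl1, a secreted follistatin-like glycoprotein, was at 0.53 to 0.65 in young animals and at 0.02, 0.36, 0.04 and 0.03 in aged ones (-0.46), and its second probe gave -0.17. Snai2, a zinc finger repressor of epithelial genes, differed by -0.88, and Dmrta2, a transcription factor that patterns the developing cortex and hippocampus, by -0.50, with young values of 2.53 to 2.63 and aged values of 1.75 to 2.34. Rnase13 and Lama5, a laminin chain of basement membranes, were not well above background on any aged array. By group means and against the detection level they were at least 1.21-fold and at least 1.09-fold lower, and the second Lama5 probe gave -0.45.

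Of 34 cadherins and protocadherins, Cdh23 included, 5 were higher and 1 lower at an unadjusted p under 0.05, where 2.33% and 4.02% of all named genes were. Cdh13, a cadherin held in the membrane by a lipid anchor, differed by 0.42, with young values of 5.58 to 6.10 and aged values of 6.01 to 6.41. Cdh1 (E-cadherin) differed by 1.12, with AU_Sham 4, at -1.61, among the young. Pcdhb12 and Cdh2 (N-cadherin) differed by 0.35 and 0.28, the second Cdh2 probe by 0.0013, and Cdh10 by -0.34.

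Genes of neurons, astrocytes and myelin were read against the same shares of all named genes. None of 35 immediate early and activity-regulated genes, 30 myelin and oligodendrocyte genes, 20 astrocyte genes, 18 pan-neuronal genes or 18 GABA receptor genes passed the unadjusted threshold in either direction in limma. Of 33 glutamate receptor genes 0 were higher and 2 lower, of 42 genes of synaptic vesicles and release 2 were higher and 1 lower, and of 43 neuropeptides and trophic factors 2 were higher and 1 lower. Inhibitory interneuron genes (29) and reactive astrocyte genes (22) had 1 higher and 1 lower each, and calcium handling genes (39) had 2 higher and 0 lower. Arc, the synaptic plasticity gene, was at 6.49 to 7.02 in young and at 6.60 to 7.53 in aged animals (0.25, SE 0.216). Fos differed by -0.14 (SE 0.332) and the growth factor Bdnf by -0.09 (SE 0.259). The interneuron peptide Sst differed by 0.28 (SE 0.261). Gfap, the filament of reactive astrocytes, was at 5.13, 5.25, 5.26 and 4.5 in young and at 5.20, 5.04, 4.99 and 5.61 in aged animals (0.17, SE 0.18). The acute-phase inhibitor Serpina3n differed by 0.46 (SE 0.373), and neither difference could be told from 0 at this spread. Mbp, the myelin basic protein, differed by 0.26 (SE 0.222), and by -0.05 at its other probe. Of 24 glucocorticoid signalling genes 3 were higher and 0 lower: Fkbp5, a co-chaperone of the glucocorticoid receptor (0.34), the metallothionein Mt2A (0.45) and the lipid droplet protein Plin4 (0.39). On slide 1 alone Mt2A (-0.07), Mcm6 (0.05), Hapln1 (0.01), Cdh2 (-0.05) and Itm2a (0.17) were in the opposite direction. Fkbp5 was at 5.66 to 5.99 in young and at 5.87 to 6.46 in aged animals. Leaving out AU_Sham 1 brought 6 of the 20 astrocyte genes past the unadjusted threshold, all higher. In that fit 8.19% of all probes were higher at the threshold. Quantile normalization of all arrays brought 0 astrocyte genes higher and 1 lower.

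Brightly expressed housekeeping lists moved with the scaling. Of 77 cytoplasmic ribosomal protein genes 75 were higher and 3 passed the unadjusted threshold, with a median of 0.22. Of 70 oxidative phosphorylation subunits 64 were higher and 8 passed, with a median of 0.15. Of all 13365 named genes, 5910 were higher, and 2.33% were higher at that threshold. Under quantile normalization the list medians were 0.0046 and -0.01, with 0 and 1 members past the threshold. Without AU_Sham 1, in the z-score scaling, 32 ribosomal and 29 oxidative phosphorylation genes were higher at that threshold. In that fit 8.19% of all probes were. The mean level of the ribosomal list was 9.08 to 9.26 in young animals and 9.12, 9.42, 9.29 and 9.54 in AU_Sham 1 to 4, whose arrays had an SD of log2 signal of 4.34, 4.05, 4.06 and 3.93. Bsn (bassoon), a scaffold of the presynaptic active zone and itself bright, was at 8.07 to 8.14 in young animals, 8.14 in AU_Sham 1 and 8.63 to 8.81 in the other 3.

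Stimulated animals gave values of the chosen genes in other rats, although their arrays were in the same fit and shared its filter on dim probes and its estimate of spread. The comparison of 5 AU_iTBS with 4 Y_iTBS hippocampi, 48 h after intermittent theta burst stimulation (short high-frequency trains of magnetic pulses), set ages mostly on separate slides against each other: slide 1 held 1 young and 2 aged animals, the other 3 young ones were on slide 2 and the other 3 aged ones on slides 3 and 4. It called 3 probes (limma, 0.00925% of 32436), Ccl3, Cdh23 and Bpifb4, all 3 among the 12 higher genes above, and 8.64% of probes passed the unadjusted threshold. Of those 12, 9 were higher at an unadjusted p under 0.05, where 4.3% of all probes were: Cdh23, Ccl3 (1.41), Bpifb4 (1.34), Tbx4 (1.34), C4b (0.98), Olr1 (0.96), C4a (0.93), Trem2 (0.44) and Otos (0.37). With the slide as a block, an alternative added after seeing the data, none of the 24 was called there (Cdh23 adjusted p = 0.0680, Ccl3 0.170, Bpifb4 0.142, limma). The same number of the 12, 9, then passed the unadjusted threshold in the same direction, where 7.27% of all probes were higher. Within slide 1 the differences were 1.40 for Cdh23, 0.87 for Ccl3 and 1.68 for Bpifb4. Trem2, C4b and C4a gave nearly the same difference as in sham animals without the block, and 0.61, 1.43 and 1.33 with it. Tex12, Timd2 and Cyct, the 3 with a dim or absent signal in young sham animals, were in the opposite direction, at -0.29, -0.48 and -1.15. With the block they were at 0.27, -0.17 and -0.95. Of the 12 lower genes, 9 were lower again but 3 passed that threshold, where 4.34% of all probes did: Acot1 (-0.48), Fstl1 (-0.37) and Dmrta2 (-0.37). Racgap1, Kif22 and Kif18b were at -0.22, -0.10 and -0.47. With the slide as a block 11 of the 12 lower genes were lower and 4 passed the threshold, where 7.17% of all probes did.

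The difference between the age effects of sham and stimulated animals was tested in the same fit. Of the 24 genes 10 had an unadjusted p under 0.05, but the sham values had chosen them. No probe was called (limma, smallest adjusted p = 0.853; 1129 probes passed the unadjusted threshold, where chance gives 1621.8). By list, the stimulated animals had 11 of 22 complement genes, 12 of 25 microglial genes and 22 of 35 interferon-induced genes higher at the unadjusted threshold and 0 lower in each, with medians of 0.42, 0.28 and 0.45. Of all 13365 named genes 745 were higher there and 595 lower, with a median of 0.0095. With the slide as a block the 3 lists had 12, 10 and 23 higher and 0 lower, where 7.27% of all probes were higher. In that fit 61 of 77 ribosomal and 37 of 70 oxidative phosphorylation genes were higher too and 0 lower. With the block the shift was thus not particular to these 3 lists. Without the block 7 of 77 ribosomal and 6 of 70 oxidative phosphorylation genes were higher at the threshold and 0 lower. The interferon-induced list had 1 of 35 in sham animals, but a list-wide difference was not tested. Neurogenesis and proliferation genes had 2 higher and 3 lower of 31 there, with a median of 0.05.

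**Figure D4:**
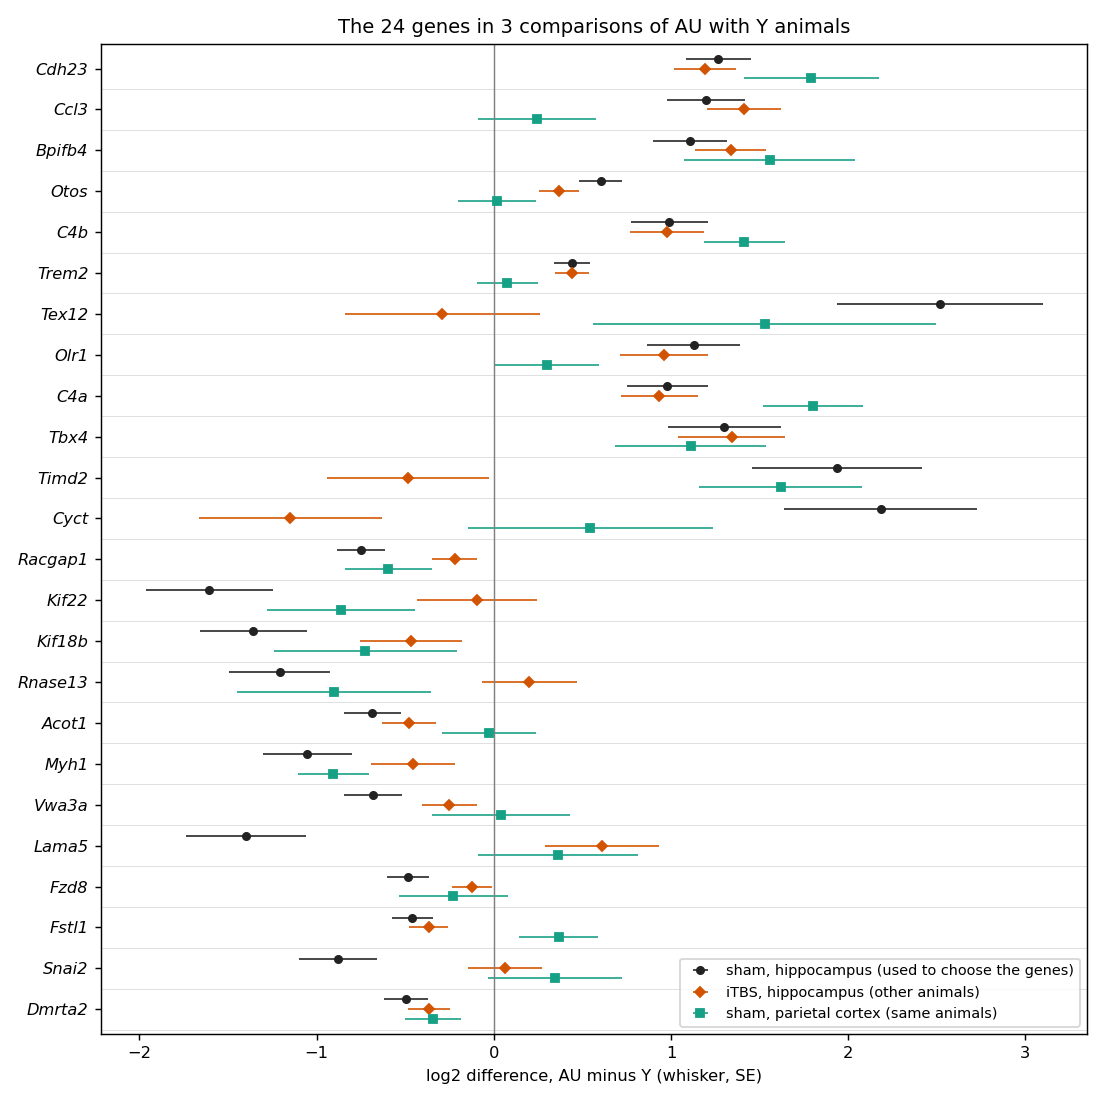
Log2 difference, AU minus Y, with SE, for the 24 genes chosen in sham hippocampus (circles), in the hippocampus of stimulated animals (diamonds) and in the parietal cortex of the same sham animals (squares). Of the 12 higher genes 9 are also higher in stimulated animals at an unadjusted p under 0.05, and Cyct lies at 2.18, -1.15 and 0.55.

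In the parietal cortex of the same 8 rats, 18 of 32612 probes were called (limma, 0.0552%), 14 higher and 4 lower, and 9.22% passed the unadjusted threshold. C4b and C4a were among them, at 1.41 and 1.80 (adjusted p = 0.0122 for each). Cdh23 was 1.79 higher there (adjusted p = 0.0882). Of the 12 higher hippocampal genes all 12 were in the same direction in cortex and 6 passed the unadjusted threshold (3.77% of all probes did so): C4b, C4a, Cdh23, Bpifb4 (1.56), Timd2 (1.62) and Tbx4 (1.11). Ccl3, Trem2, Otos and Olr1 differed there by 0.25, 0.08, 0.02 and 0.30. Of the 12 lower genes 8 were in the same direction and 3 passed (5.45% of all probes did so): Myh1 (-0.90), Racgap1 (-0.60) and Dmrta2 (-0.34). Cdk1, with -1.29, was low in cortex too, whereas Col3a1 and Col1a1 were at 0.04 and 0.38. The 25 microglial genes had 0 past the threshold in either direction in cortex, with a median of 0.14. Of the 31 neurogenesis and proliferation genes, 0 were higher and 6 lower at that threshold in cortex, with a median of -0.17. Over all probes 3.77% were higher there and 5.45% lower. In the test of hippocampal against cortical age difference within each animal, 8 of the 24 genes had an unadjusted p under 0.05, Ccl3, Otos, Olr1, C4a, Acot1, Lama5, Fstl1 and Snai2, and none was called. Their hippocampal values had chosen them, and over all probes 1394 of 34799 passed that threshold, where chance gives 1739.95.

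Aged rats with impaired memory (AI_Sham, 4 animals) were compared with the same young animals, so the 2 age comparisons share their controls. Their differences from Y_Sham were 0.95 for Cdh23, 0.77 for Ccl3, 1.04 for Bpifb4, 1.31 for C4b, 1.03 for C4a, 0.40 for Trem2, -0.47 for Racgap1, -0.92 for Kif22 and -1.15 for Kif18b. Other values lay nearer to 0 or in the other direction: Cyct was at -0.44, Tex12 at 0.57, Vwa3a at -0.13, Fstl1 at -0.15, Rnase13 at -0.55 and Lama5 at -0.67, and the collagens Col3a1 and Col1a1 were at 0.27 and 0.19. Cyct, Tex12, Vwa3a, Fstl1, Rnase13 and Lama5 were the 6 of the 24 genes that had an unadjusted p under 0.05 between AI_Sham and AU_Sham, but the AU_Sham values had chosen the genes. One AI_Sham animal was on slide 1 and the other 3 on slide 4. In the direct test of AI_Sham against AU_Sham no probe was called (limma, smallest adjusted p = 1.00; 1290 probes passed the unadjusted threshold, where chance gives 1621.8).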

How the data were processed

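Total RNA of the dorsal hippocampus was hybridized to SurePrint G3 Rat v2 arrays with 1 colour (Cy3) by the authors, and the deposited intensity values are scanner output of Agilent Feature Extraction 12.0.3.1, background-subtracted within an array and not scaled between arrays. The submitters' text calls the animals mice in one place, whereas the organism is rat. Spots flagged non-uniform or as population outliers were left out, copies of a probe were averaged, and log2 signals were turned into z-scores per array, after the study's methods, then brought back to a log2 scale with the average SD over arrays (4.09). Probes well above background on at least 3 of 24 first hippocampus arrays were tested in R 4.3.3 with limma 3.58.1, with 6 group means, two-sided, called at a Benjamini-Hochberg adjusted p under 0.05. With few arrays per group their number limits the precision. Symbols came from RefSeq accessions, and 46.3% of probes had 1 symbol.

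The series' other score table, the deposited z-scores, and the flags other than those named served as alternatives or filters. A gene in a list is represented by its brightest tested probe. The 12 genes with the smallest p in each direction (by the probe of smallest p, well above background on at least 3 of 4 arrays of a group), called list members, the 3 list members with the smallest p and a fixed set of marker genes could be named; other list members past the unadjusted threshold were named after their values were seen. The comparison and the lists were chosen with earlier results of these data known. One array with contradicting labels and the repeat arrays of some animals were not used, except that repeats were averaged in an alternative. Alternatives covered scaling, background (normexp on the median spot signal and median local background; the mean signal was not used here), the filter on dim probes, the arrays fitted, the slide, replicate blocks and leaving out each animal. The fit was checked on simulated data.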

Additional observations from a re-analysis of the deposited data

Results flagged for a closer look

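In 10 of 156 groups of 4 animals, over 78 named genes, the highest or lowest animal stood far from the others by Dixon's criterion, where chance gives about 7.8. In young animals these were Cdh23 in Y_Sham 4 (-1.56), Timd2 in Y_Sham 3 (-1.28), Aif1 (6.02) and Tyrobp (5.18) in Y_Sham 2, Dcx (2.31) and Timp3 (1.49) in Y_Sham 1, and Gfap in Y_Sham 4 (4.5). In aged animals these were Ccl3 (0.64) and C1qb (7.01) in AU_Sham 1 and Fstl1 in AU_Sham 2 (0.36). For Cdh23 the outlying young animal lies away from the aged ones, and for Timd2 it lies among them.

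One probe differed between regions in its age difference (limma on the difference within each animal, adjusted p = 0.0454, 1 of 34799 tested). It belongs to the unnamed transcript XR_598705, whose age difference in hippocampus minus that in cortex was -2.41 (SE 0.356). Its mean was 0.82 in young and 0.69 in aged hippocampus, and -2.45 in young and -0.18 in aged cortex.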

How the results depend on the processing

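The number of probes called, 1 in the fit reported, was 2 with 75th percentile scaling, 2 with the slide as a fixed block, 0 without the filter on dim probes, 0 with a mean z-score above 0 required, 0 with the 8 sham arrays alone, 0 to 58 without 1 animal, and 47 by the methods' selection rule (an ANOVA, a z-ratio of 1.5 and a false discovery rate of 0.3), 25 higher and 22 lower. Without AU_Sham 1 it was 58 and without Y_Sham 3 it was 5. Probes higher at an unadjusted p under 0.05 numbered 1160 without the filter, 468 with the 8 arrays alone and 437 to 2658 without 1 animal. Probes lower numbered 639 with 75th percentile scaling, 651 with a mean z-score above 0 and 733 to 3502 without 1 animal. The next 4 alternatives were chosen after seeing the data. Without AU_Sham 1 and with the slide as a block, 5 probes were called, 1750 higher and 2246 lower at the unadjusted threshold. On slide 2 alone 4 were called and 1234 were higher. Without both AU_Sham 1 and AU_Sham 4, 1557 were higher and 1906 lower. Without AU_Sham 1 and with quantile normalization, 16 were called, 2430 higher and 2869 lower. In stimulated hippocampus 6 were called with quantile normalization and 7 with the slide as a block, against 3, and in cortex 66 with the slide as a block, against 18. The cause of these shifts was not tested.

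Rats with the same replicate number are different animals. The deviations of same-numbered arrays correlated at 0.27, -0.26, 0.07 and -0.0023, so the numbers do not pair them, and not every sample correlated best with its own number. With a replicate block on the 8 sham arrays 0 probes were called, and Cdh23 stayed at 1.27.

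Genes that changed sign were all far from the threshold. Leaving out 1 animal, Mki67 ranged from -0.15 (without AU_Sham 4) to 0.46. Gfap ranged from -0.0030 (without Y_Sham 4) to 0.25, and was at -0.020 without both AU_Sham 1 and 4. Mbp was at -0.048 with quantile normalization, -0.047 with normexp and -0.052 with quantile normalization without AU_Sham 1. Fos was at 0.0065 with 75th percentile scaling and ranged from -0.42 to 0.059 (without AU_Sham 4) with 1 animal left out. Bdnf was at 0.0045 with normexp and 0.32 without both AU_Sham 1 and 4, and ranged from -0.33 to 0.26 (without AU_Sham 4) when 1 animal was left out.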

Other observations

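Among the 58 probes called without AU_Sham 1, 34 had a gene symbol, and each of the 58 was at an unadjusted p under 0.05 in the same direction when quantile normalization replaced the z-score. Beside Cdh23 (1.27, limma, adjusted p = 0.0154) they held Racgap1 (-0.85, adjusted p = 0.0154), Kif22 (-1.94, adjusted p = 0.0310), Kif18b (-1.62, adjusted p = 0.0359), Myh1 (-1.28, adjusted p = 0.0359) and Bsn (0.61, adjusted p = 0.0310). The remaining aged animals, AU_Sham 2, 3 and 4, were all on slide 2. With the slide as a block 4 of the 58 were called, and each of the 58 was still at an unadjusted p under 0.05. Kif22, Racgap1, Kif18b and Cdh23 were not among those called with the block. Their differences were then -1.99, -0.89, -1.58 and 1.22 (limma, adjusted p = 0.118, 0.0675, 0.133 and 0.0615).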
